A study of Mus musculus with 4 samples.

Results

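The genes described here are the 10 mouse genes at the core of MHC class II antigen presentation: the chain genes H2-Aa, H2-Ab1 and H2-Eb1, the invariant chain gene Cd74, the transactivator gene Ciita, and the peptide exchange genes H2-DMa, H2-DMb1, H2-DMb2, H2-Oa and H2-Ob. They were taken by symbol from the 31053 gene rows that the deposited single-cell matrices hold, and all 10 were found. The cells were sorted as CD45+CD11b+ from whole ovaries of virgin WT C57BL/6J mice labelled 3 months or 15 months old, with no treatment named. Each age was prepared as 3 suspensions carrying different barcoded antibodies, called hashtag pools here, which went through a common sort into 1 droplet library. By the protocol, harvest was at 2 to 3 and at 14 to 17 months, the young pools came from 6 animals, 2 for each, and a single mouse made up 1 of the old pools, for which 5 animals were used in all. The series description instead gives 2 mice for every pool. Age and library cannot be told apart, so each p-value below measures the spread between pools inside libraries.

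MHC class II molecules are pairs of an alpha and a beta chain that show peptides from engulfed proteins to CD4+ T cells, and in the ovary they are known from the macrophages and dendritic cells around follicles and corpora lutea. New chains are held by the invariant chain (Cd74) until cathepsins cut it down to a remnant, which H2-DM removes and which H2-O keeps in place by holding H2-DM back. Transcription of the alpha and beta chain genes depends on Ciita, a coactivator that binds to proteins assembled on the X and Y boxes upstream of the start sites.

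The X and Y boxes are the sequences that the class II genes share, so the promoters in which they were found are shown first. RefSeq promoter windows on GRCm38.p6, from 250 bases before to 50 bases after a start, were given for H2-Aa, H2-Eb1, H2-DMa, H2-DMb1, H2-DMb2, H2-Oa and H2-Ob. The letters AAC, any 2 bases, then ATGATG, for the X box, and TGATTGG, for the Y box, were chosen after reading these windows. They were searched on both strands of every window. The X box letters were found in 45 of 32851 windows (0.137%) and TGATTGG in 2568 (7.82%). The first followed by the second after 5 to 30 bases was found in 4 windows of the 32851, those of H2-Eb1, H2-DMb1, H2-DMb2 and H2-Ob. In the stretches below the capitals mark these letters, each 5′ to 3′ on the gene's strand; H2-Aa and H2-Oa held TGATTGG alone, and the 2 windows of H2-DMa held neither.
H2-Eb1, chr17:34305748-34305822, plus strand: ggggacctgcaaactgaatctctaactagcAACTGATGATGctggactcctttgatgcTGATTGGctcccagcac
H2-DMb1, chr17:34153070-34153144, plus strand: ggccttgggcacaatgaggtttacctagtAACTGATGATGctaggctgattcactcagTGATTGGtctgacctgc
H2-DMb2, chr17:34145099-34145173, plus strand: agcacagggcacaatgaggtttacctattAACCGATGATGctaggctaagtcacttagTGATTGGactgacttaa
H2-Ob, chr17:34238788-34238862, plus strand: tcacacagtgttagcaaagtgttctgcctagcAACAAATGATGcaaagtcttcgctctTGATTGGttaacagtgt
H2-Aa, chr17:34287857-34287931, minus strand: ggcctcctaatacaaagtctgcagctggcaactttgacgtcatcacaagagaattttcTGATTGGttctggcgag
H2-Oa, chr17:34092276-34092350, plus strand: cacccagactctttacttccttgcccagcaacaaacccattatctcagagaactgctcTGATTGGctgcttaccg
The 2 letter groups stood 17 bases apart in H2-Eb1, 18 in H2-DMb1 and in H2-DMb2, and 15 in H2-Ob. A match of letters is a description of these windows, not a measured site. Other forms of the boxes were not searched, so a window without a match may still hold a box.

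Of the 10 genes, 8 lie in the class II region of chromosome 17 (GRCm38, GENCODE M21): H2-Oa (ENSMUSG00000024334) at 34092340 to 34095234, H2-DMa (ENSMUSG00000037649) at 34119541 to 34139101, H2-DMb2 (ENSMUSG00000037548) at 34143307 to 34151555, and H2-DMb1 (ENSMUSG00000079547) at 34153072 to 34160230. Next come H2-Ob (ENSMUSG00000041538) at 34238903 to 34254414, H2-Ab1 (ENSMUSG00000073421) at 34257689 to 34269419, H2-Aa (ENSMUSG00000036594) at 34282744 to 34287823 and H2-Eb1 (ENSMUSG00000060586) at 34305867 to 34316674. Ciita (ENSMUSG00000022504) is on chromosome 16 at 10480059 to 10528418 and Cd74 (ENSMUSG00000024610) on chromosome 18 at 60803848 to 60812652. Genes on the opposite strand overlap H2-Eb1 (Gm20513), Ciita (Dexi), H2-DMa (Brd2) and H2-Oa (BC051537), and the sources used here do not state whether counting used strand. H2-DMb1 and H2-DMb2 are near copies: over the last 500 bases of their transcripts, 27.4% of the 50-base words of H2-DMb1 also occur in H2-DMb2, so reads of H2-DMb1 could be split or lost. None of the words at the H2-DMb2 end occur in H2-DMb1, but 13.6% of them occur in transcripts of 164 other genes.

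The 3-month library held 3135 barcodes and 27277073 gene UMIs (unique molecular identifiers, which count transcripts), and the 15-month library 4939 barcodes and 45060166. Barcodes with at least 500 genes, at least 1000 gene UMIs, at most 10% mitochondrial UMIs and a clear hashtag numbered 6281: 2181 at 3 months (479 to 977 to a pool) and 4100 at 15 months (767 to 2437). Only 3 barcodes occurred in both libraries. Clusters were formed without the 10 genes, and 19 of 22 took the name of a cell class from its markers. Macrophage-like cells were clusters 0 (794 cells, with Vcam1, Mrc1 and C1qa among its leading genes), 1 (610, with Spp1, Gpnmb and Arg1), 8 (284, with Ccl8, Folr2 and Cbr2) and 19 (50, with Saa3 and Prg4). Cluster 3 (558 cells, with Ccr2, Ms4a8a and Ms4a4c) and cluster 14 (159 cells, 154 of them at 15 months, with Lipg, Fcgr4 and Cdkn2a) kept their numbers. A UMI of Ptprc, the CD45 gene, was found in 83.6% of kept cells at 3 months and 89.7% at 15 months, and one of Itgam, the CD11b gene, in 47.9% and 55.1%. Classes that the sort should lack were present: Itgam was found in 13.2% and 15.9% of cDC1-like cells, and Ptprc in 16.5% and 23.5% of endothelial-like cells. Red blood cell genes were higher at 3 months in every class checked, for example 436 to 502 against 21.7 to 27.7 CPM in cDC2-like cells. Levels below are CPM, counts per 1e6 UMIs on the TMM library size of a class, with the SD over the pools that held at least 10 cells of it.

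The 3 chain genes and Cd74 were highest in dendritic cells, next in macrophage clusters 0 and 8 and in cluster 3, and lowest in neutrophil-like and NK cell-like cells. For H2-Ab1, the beta chain of the I-A molecule, the mean was 13196 ± 1599 CPM in cDC2-like cells (SD, n = 6 pools), 11067 ± 1610 in cDC1-like cells (n = 4) and 10623 ± 2409 in mature dendritic cell-like cells (n = 5). Macrophage clusters 0 and 8 followed with 7679 ± 1523 and 7576 ± 943 CPM, and cluster 3 with 7222 ± 1995 (n = 6 each). Cycling-like cells stood at 5029, B cell-like at 4288, T cell-like at 3904, macrophage cluster 1 at 2904, fibroblast or stroma-like at 1966, non-classical monocyte-like at 875, endothelial-like at 737, classical monocyte-like at 658, NK cell-like at 326 and neutrophil-like at 118 CPM. In the T cell, stroma, endothelial and NK cell-like classes these UMIs were spread unevenly over the cells, as given below, so a mean need not describe most cells. Mature dendritic and cDC2-like cells lay close together for the other chain genes and Cd74: H2-Aa, the I-A alpha chain, was at 14096 ± 2301 CPM in mature dendritic cell-like cells and 13411 ± 1907 in cDC2-like cells, and H2-Eb1, the I-E beta chain, at 12617 ± 2326 and 12287 ± 1811. Cd74 was at 24582 ± 3236 and 24391 ± 3913 CPM. Over the 5 pools that both classes share, cDC2-like cells were higher in 2 of 5 pools for each of these 3 genes, and for Cd74 the mean log2 difference was -0.006 (mature dendritic minus cDC2-like).

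**Figure D1:**
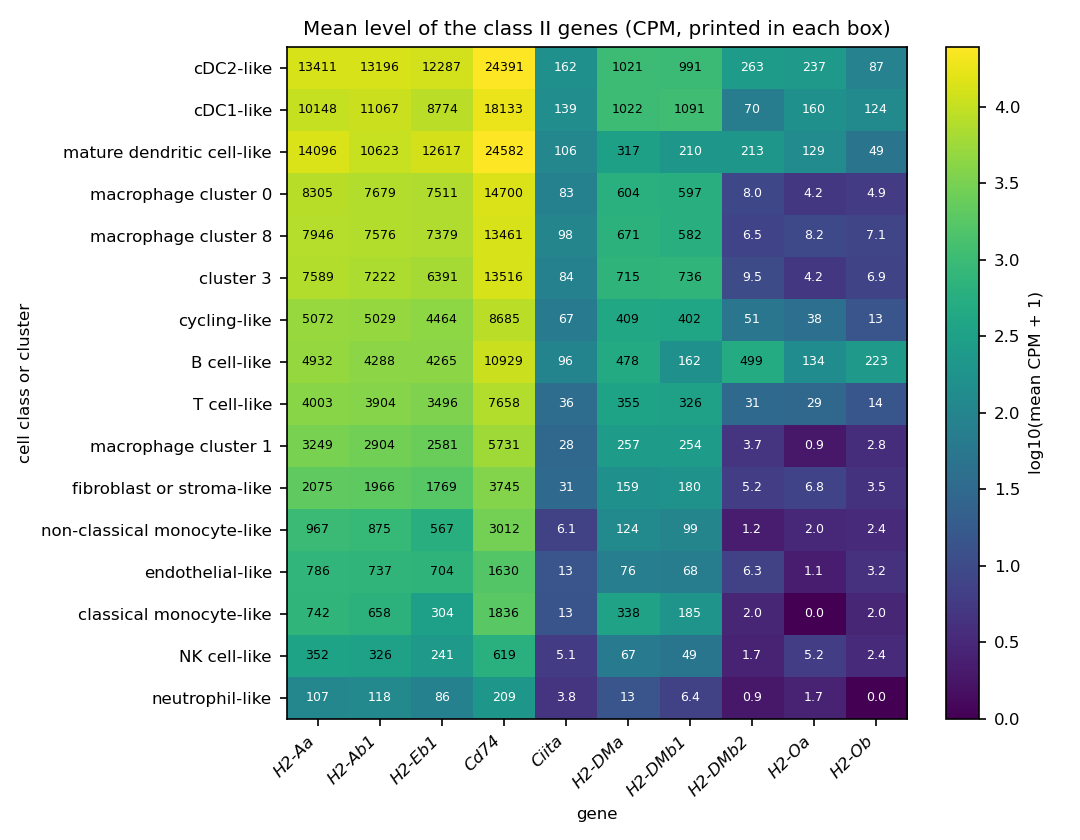
Mean CPM of each gene (columns) in each cell class or cluster (rows, ordered by H2-Ab1), over the pools with at least 10 cells; the colour scale is log10(mean CPM + 1). H2-Ab1 runs from 13196 CPM in cDC2-like cells to 118 in neutrophil-like cells, while H2-DMb2, H2-Oa and H2-Ob are above 40 CPM only in the dendritic and B cell-like rows, apart from 51 CPM of H2-DMb2 in cycling-like cells.

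Whether neighbours in this order differ could not be settled by a test. A two-sided exact sign-flip permutation test over 6 pools cannot give a p below 0.031, and after adjustment over the 15 neighbour pairs of a gene no pair could have passed, whatever its values. Some neighbours differed in the same direction in 6 of 6 pools, such as H2-DMa in cDC2-like cells over cluster 3 (log2 difference 0.52 ± 0.15, SD) and H2-Aa in cluster 3 over cycling-like cells (0.56 ± 0.32). Mature dendritic and cDC2-like cells, neighbours for H2-Aa, H2-Eb1 and Cd74, were not ordered in this way. Steps of several places were seen in every pool. H2-Ab1 was higher in cDC2-like cells than in macrophage cluster 0 in 6 of 6 pools, by 0.80 on the log2 scale, and higher in cluster 3 than in non-classical monocyte-like cells in 6 of 6 pools, by 3.25; these pairs were picked after the levels were seen and carry no test.

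Among macrophages the class II genes differed by cluster. H2-Aa, H2-Ab1, H2-Eb1, Cd74, H2-DMa and H2-DMb1 were each higher in cluster 0 than in cluster 1, the Spp1 and Gpnmb cluster, in 6 of 6 pools. For H2-Ab1 the values by pool in cluster 1 were 1935, 1888 and 3849 CPM at 3 months and 2414, 3078 and 4260 at 15 months, against 9988, 6315 and 7444, then 9001, 6142 and 7185 in cluster 0. The ranges of clusters 0 and 1 did not overlap, and the mean log2 difference was 1.45. Cluster 8, with the resident macrophage genes Folr2 and Cbr2, stood with cluster 0: its values were 8191, 6338 and 7549 CPM, then 8097, 6577 and 8703.

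Counted cell by cell, cluster 1 was mixed rather than uniformly low. After thinning every cell to 1000 UMIs, cells of cluster 0 held a median of 23.5 UMIs of H2-Aa, H2-Ab1 and H2-Eb1 together at 3 months and 24 at 15 months. In cluster 1 the medians were 1 and 5, with 42.8% and 28.4% of cells at 0 and a 90th percentile of 20 and 27. Cells with at least 5 such UMIs made up 35.4% of 311 cells of cluster 1 at 3 months and 50.8% of 299 at 15 months, against 88.8% and 91.2% in cluster 0. Pool 3 of the 3-month library stood apart within cluster 1, with 26 of its 40 cells against 28.4% and 34.1% of cells in pools 1 and 2. In cDC2-like cells at least 99.1% of cells passed this count at either age, and in neutrophil-like cells at most 0.926%, the level in a class that should lack these genes.

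**Figure D2:**
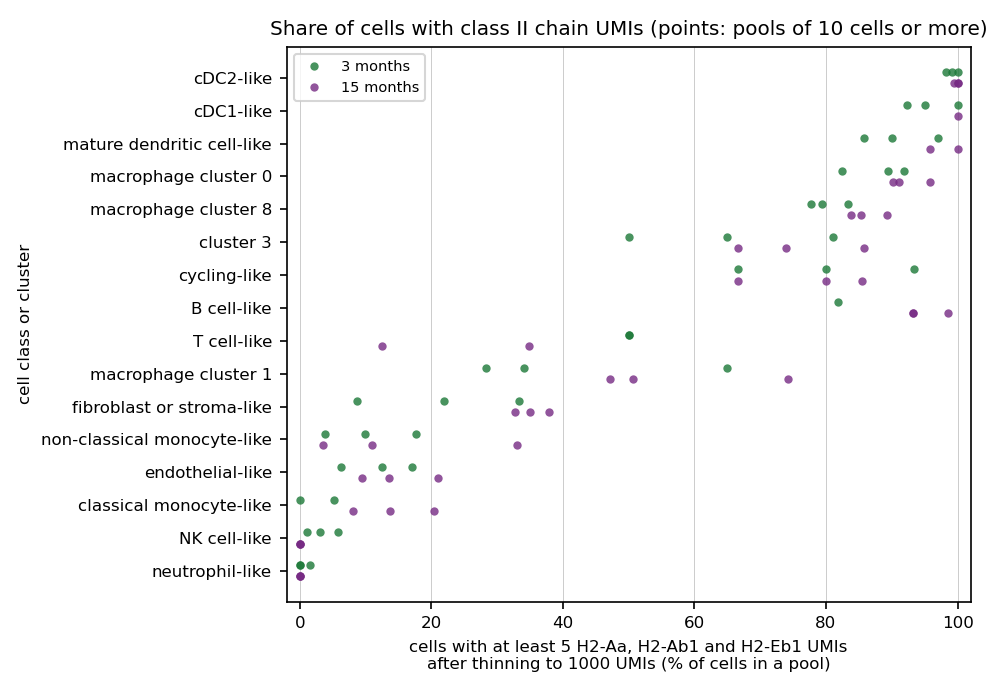
Percent of cells with at least 5 UMIs of H2-Aa, H2-Ab1 and H2-Eb1 together after thinning to 1000 UMIs (x axis), by cell class or cluster (y axis) and age (colour); each point is a pool of 10 cells or more. Cluster 1 spans 28.4% to 74.2%, below cluster 0 (82.5% to 95.8%).

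Ciita, the transactivator, was counted at low levels and largely followed the chain genes. Its mean was 162 ± 29.0 CPM in cDC2-like cells (n = 6), 139 ± 18.0 in cDC1-like cells (n = 4) and 106 ± 36.3 in mature dendritic cell-like cells (n = 5). Macrophage cluster 8 (98.4 ± 32.1), B cell-like cells (96.2 ± 39.3, n = 4), cluster 3 (83.8 ± 15.9) and macrophage cluster 0 (82.6 ± 27.3) came next, with means that lay within the spread of their pools. Macrophage cluster 1 held 27.8 ± 14.1 CPM, and the monocyte, NK and neutrophil-like classes held at most 12.8. Over 88 sums of a class and a pool from 16 classes, log2(CPM + 1) of Ciita and H2-Ab1 correlated at r = 0.899, and H2-Aa and H2-Ab1 at r = 0.997. These sums share pools, libraries and depth, so the values describe likeness and carry no test.

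The H2-DM genes, whose product exchanges the invariant chain remnant for a peptide, were divided differently among dendritic cells. H2-DMa, the DM alpha chain, was at 1022 ± 154 CPM in cDC1-like and 1021 ± 127 in cDC2-like cells, yet at 317 ± 120 in mature dendritic cell-like cells. It was higher in cDC2-like than in mature dendritic cell-like cells in 5 of 5 pools, by 1.76 on the log2 scale. H2-DMb1, a DM beta chain, showed the same order at 1091 ± 182, 991 ± 172 and 210 ± 120 CPM, and its log2 difference over the same 5 pools was 2.47. Mature dendritic cells were named from Ccr7, Fscn1 and Ccl22 and not from any of these genes. In macrophage clusters 0 and 8 H2-DMa stood at 604 and 671 CPM and H2-DMb1 at 597 and 582, and in cluster 3 at 715 and 736.

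H2-DMb2 encodes a second DM beta chain, and its share of all DM beta UMIs set B cells and mature dendritic cells apart from macrophages. The share was 74.2% ± 13.2 in B cell-like cells (SD, n = 4 pools, 57.1% to 88.8%), 52.3% ± 14.6 in mature dendritic cell-like cells (n = 5, 31.5% to 70.6%) and 21.3% ± 3.64 in cDC2-like cells (n = 6, 14.8% to 24.6%). In cDC1-like cells it was 6.14% ± 1.77 (n = 4), and in macrophage clusters 0, 1 and 8 it was 1.38%, 1.62% and 1.23% (n = 6 each). The highest macrophage pool, 3.36%, lay below the lowest cDC2-like pool. As levels, H2-DMb2 stood at 499 ± 149 CPM in B cell-like, 263 ± 37.2 in cDC2-like, 213 ± 82.4 in mature dendritic cell-like and 69.7 ± 15.3 in cDC1-like cells, and at 8.04 or less in macrophage clusters. Of 1178 DM beta UMIs in B cell-like cells 922 were of H2-DMb2 (Wilson 95% interval of the share 75.8% to 80.5%, counting error only), and of 6738 in cDC2-like cells 1424 were. The shares may be shifted by how reads of H2-DMb1 that also match H2-DMb2, and reads of H2-DMb2 that match other genes, were assigned. Whether such a shift differs between classes was not tested.

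**Figure D3:**
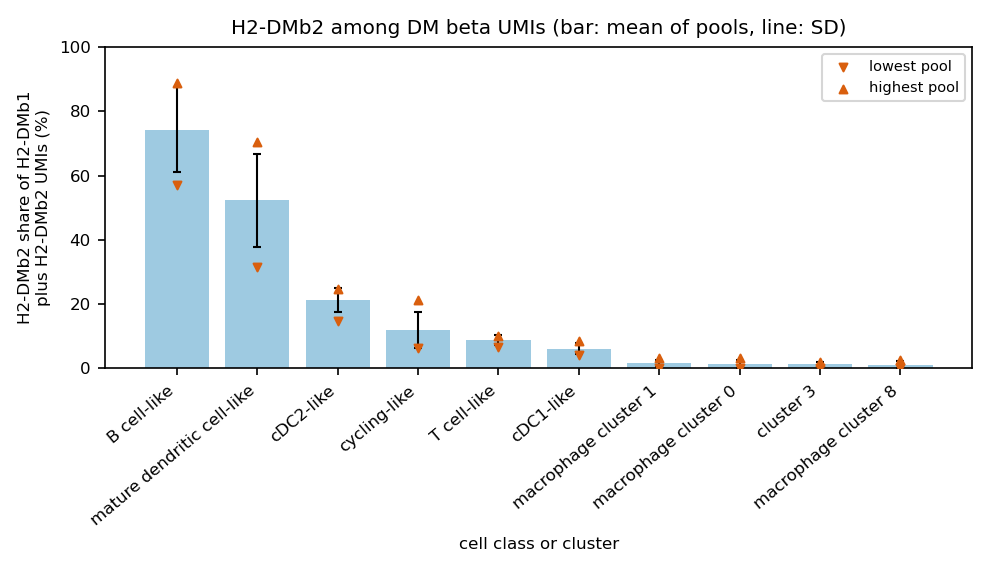
Share of H2-DMb2 among the UMIs of H2-DMb1 and H2-DMb2 (y axis, percent) in classes with at least 40 such UMIs in every pool used; bars are means over pools, lines the SD, triangles the lowest and highest pool. The share falls from 74.2% in B cell-like to 1.23% in macrophage cluster 8.

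H2-Oa and H2-Ob, the chains of the DM inhibitor H2-O, had their highest levels in dendritic and B cell-like cells. H2-Oa was at 237 ± 77.9 CPM in cDC2-like cells, 160 ± 51.5 in cDC1-like, 134 ± 14.7 in B cell-like and 129 ± 89.8 in mature dendritic cell-like cells, against 38.4 ± 14.9 in cycling-like cells and 0.900 to 8.17 in macrophage clusters 0, 1 and 8. H2-Ob had another order, with 223 ± 59.3 CPM in B cell-like, 124 ± 15.5 in cDC1-like, 87.0 ± 12.5 in cDC2-like and 48.7 ± 28.3 in mature dendritic cell-like cells, and 2.79 to 7.11 in the macrophage clusters. T cell-like cells gave 29.4 ± 24.2 and 14.0 ± 5.93 CPM. That class also held chain UMIs very unevenly: at 3 months 21 of its 39 cells carried at least 10 UMIs of H2-Aa, H2-Ab1, H2-Eb1 and Cd74. Without the T cell-like cells that carried any UMI of 8 macrophage and dendritic markers (C1qa, C1qb, C1qc, Xcr1, Clec9a, Naaa, Cd209a, Clec10a), the level of these 4 genes went from 21012 to 1178 CPM at 3 months and from 12366 to 1421 at 15 months. Doublets in these barcodes were not tested.

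Genes that are no members but share the pathway differed between the same classes. H2-Eb2, a further class II beta gene of the locus, was at 183 ± 28.8 CPM in mature dendritic cell-like cells, 29.1 ± 23.3 in B cell-like cells and at most 3.84 elsewhere. March1, the ubiquitin ligase that takes class II off the surface, was at 5.47 ± 7.94 CPM in mature dendritic cell-like cells against 65.5 ± 13.4 in cDC2-like and 77.5 ± 15.6 in cDC1-like cells. Cd83, which opposes that ligase, was at 1278 ± 216 CPM in mature dendritic cell-like cells, 914 ± 198 in cDC2-like cells and 1077 ± 414 in macrophage cluster 0, against 127 ± 64.5 in macrophage cluster 8. The protease genes Ctss and Lgmn were abundant in macrophages: in clusters 0, 1 and 8 Ctss stood at 2683, 3854 and 3170 CPM and Lgmn at 1037, 1130 and 1232, against 3030 and 850 in cluster 3 and 1502 and 135 in cDC2-like cells. In cluster 1 the values of Ctss by age were 2774 ± 508 CPM over the 3-month pools and 4933 ± 742 over the 15-month pools (adjusted p = 0.28).

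The genes most like a member over the 88 sums, among 5490 genes with a mean of at least 20 CPM, were mostly myeloid and dendritic genes. For H2-Ab1 they were Shtn1 (r = 0.848), Cxcl16, Ctsh, Pkib and Ly86 (0.799). For Ciita they were Clec10a (0.783), Shtn1, Pkib, Lpcat1 and Cxcl16, and for H2-Oa P2ry10 (0.698), Dpp4, Ccr7 and Etv3. For H2-DMb2 they were Ccr7 (0.739), Ccl17, Gpr183, Dpp4 and Etv3. Likeness here means Pearson's r of log2(CPM + 1), given as a description.

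Ages were compared here by edgeR's quasi-likelihood test on UMIs summed for each pool, with Benjamini-Hochberg adjustment over all genes of a fit. Over all kept cells, 0 of the 10 genes passed the adjusted threshold of 0.05, and of the 12028 genes tested 27 passed (0.224%). An unadjusted p under 0.05 was found for 1 of the 10 members and for 2388 of the 12028 genes. Cd74 was at 11124, 9388 and 13441 CPM at 3 months and at 6797, 9295 and 8463 at 15 months, a log2 ratio of -0.47 ± 0.16 (SE; adjusted p = 0.181). The groups did not overlap for Cd74, as for 26.2% of all genes tested, and overlapped for the other 9 members. In such sums fewer cells of a type and less RNA per cell cannot be told apart. For H2-DMb2 and H2-Ob the classes that gave the UMIs differed between ages, while the totals did not pass the test. B cell-like cells gave 5.36%, 6.03% and 5.59% of the H2-DMb2 UMIs of the 3-month pools and 56.6%, 28.4% and 53.4% of those of the 15-month pools. For H2-Ob the shares were 5.56%, 6.38% and 4.24%, then 57.6%, 24.5% and 53.0%. The number of B cell-like cells moved with these shares, with 20 of 2181 kept cells at 3 months and 244 of 4100 at 15 months (0.917% and 5.95%). Over the same ages cDC1-like cells went from 41.6% to 16.8% of the H2-Ob UMIs of a library and from 6.24% to 2.00% of its kept cells.

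In macrophage-like cells no member passed the test, with 8 of 8897 genes called (0.0899%). Of the 9 members tested 9 had a positive log2 ratio with a median of 0.27, against 0.004 over all genes of the fit. An unadjusted p under 0.05 was found for 2 of the 9 members and for 1224 of the 8897 genes. The make-up of the class differed between pools: at 3 months cluster 1, where class II levels were low, held 148 of 270 macrophage-like cells in pool 1, 123 of 215 in pool 2 and 40 of 267 in pool 3. At 15 months it held 69 of 187, 199 of 613 and 31 of 186, respectively, and its part in the ratios was not tested. Within cluster 0 alone 6 of the 7 members tested had a negative ratio, with a median of -0.08. In the whole class the values of Ciita were 34.9, 31.7 and 51.6 CPM at 3 months and 65.6, 72.9 and 73.9 at 15 months. Every 15-month pool was above every 3-month pool, the log2 ratio was 0.84 ± 0.19 (SE), and the adjusted p was 0.248. Groups did not overlap for 19.8% of the genes of this fit. DESeq2 gave the same ratio with an adjusted p of 0.0479, edgeR without its filter on low counts gave 0.0088, and without pool 3 of the 3-month library it was 0.0094, so that the call turned on these choices. The share of macrophage-like cells with a Ciita UMI after thinning to 1000 UMIs was 2.96%, 3.72% and 4.49% at 3 months and 9.09%, 7.67% and 8.60% at 15 months (two-sided exact permutation p = 0.1, the smallest that 3 against 3 allows); in neutrophil-like cells 1 of 353 had one at 15 months. H2-Ab1 (4675, 2993 and 6397, then 5038, 4912 and 6391 CPM) and Cd74 (9589, 6516 and 12881, then 9239, 8804 and 11535 CPM) overlapped between ages, with log2 ratios of 0.22 ± 0.24 and 0.03 ± 0.22. Of 38 tested genes of the pathway list none passed, the smallest p being those of Ctss (0.43, adjusted p = 0.261), Cd83 (-0.55, adjusted p = 0.266) and Tet2 (0.50, adjusted p = 0.289).

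Split by cluster, the macrophage values gave no call either. In cluster 0 the log2 ratio of Ciita was 0.63 ± 0.20 (adjusted p = 0.289), from 76.4, 52.6 and 60.5 CPM to 129.6, 91.2 and 85.0, with no overlap, as for 15% of genes. In the same cluster H2-Ab1 gave -0.09 ± 0.17 and Cd74 -0.25 ± 0.16. In cluster 1 all 7 tested members had positive ratios, from 0.18 for Cd74 to 1.00 ± 0.43 for Ciita, with a lowest adjusted p of 0.439. In cluster 8 the range was from -0.09 for Cd74 to 0.40 for H2-DMa. Of 7329, 7235 and 2797 genes tested in the 3 clusters 13, 9 and 12 were called (0.177%, 0.124% and 0.429%).

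**Figure D4:**
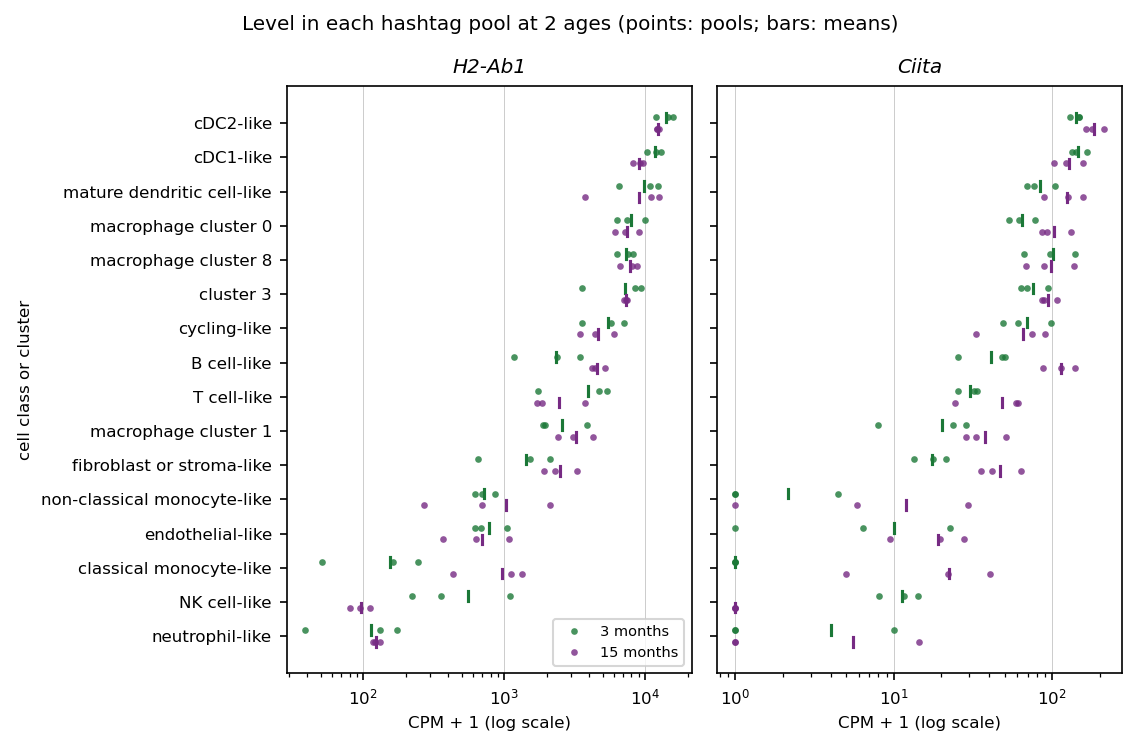
CPM + 1 of H2-Ab1 and of Ciita (x axes, log scale) in each hashtag pool (points) by cell class or cluster (y axis) and age (colour), with short bars at the means; in B cell, T cell, cDC1, mature dendritic and classical monocyte-like classes some pools held 4 to 9 cells. Ciita of macrophage cluster 0 and of cDC2-like cells lies to the right at 15 months in every pool, while H2-Ab1 of the same classes overlaps between ages.

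In cDC2-like cells no member was called, and 12 of 5035 genes were (0.238%). Ciita was at 128, 146 and 147 CPM at 3 months and 210, 178 and 162 at 15 months, with no overlap, as for 17.3% of genes, and its log2 ratio was 0.37 ± 0.17 (adjusted p = 0.451). Cd74 was at 24162, 26248 and 31278, then 22388, 20690 and 21580 CPM, also with no overlap, and its ratio was -0.34 ± 0.14 (adjusted p = 0.428). Of the 10 members 7 had a negative ratio, with a median of -0.16. For H2-Aa, H2-Ab1 and H2-Eb1 the ratios were -0.19 ± 0.15, -0.20 ± 0.14 and -0.23 ± 0.15. From the pathway list Irf8, a transcription factor of dendritic cells, was lower in this class, from 86.2 ± 14.0 to 26.9 ± 7.48 CPM (log2 ratio -1.57 ± 0.24, adjusted p = 0.00848), the only one of 35 listed genes tested that passed.

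**Figure D5:**
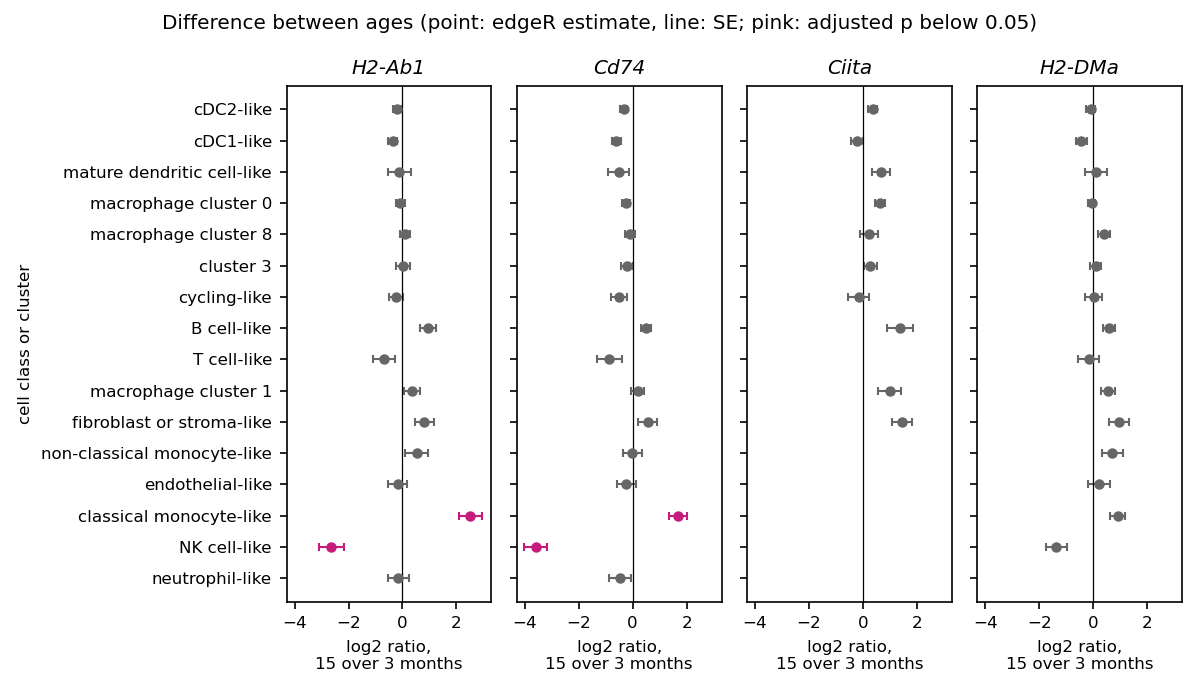
Log2 ratio of 15 over 3 months (x axis) with its SE for H2-Ab1, Cd74, Ciita and H2-DMa, by cell class or cluster (y axis); pink marks an adjusted p below 0.05. For H2-Ab1 the NK cell-like estimate lies at -2.64 and the classical monocyte-like one at 2.51, and the other classes lie between -0.69 and 0.96.

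Classes with 4 to 9 cells in some pool were fitted too, as a choice made after the data were seen. In cDC1-like cells 10 of 10 members had a negative ratio, with a median of -0.43 against -0.07 over all genes, and H2-Oa passed the test, where 97 of 3706 genes were called (2.62%). H2-Oa was at 187, 168 and 198 CPM at 3 months and 51.5, 84.5 and 146 at 15 months, with no overlap, as for 17.8% of genes, and its log2 ratio was -1.0 ± 0.26 (adjusted p = 0.0451). These 15-month pools held 4, 70 and 8 cells. Leaving out any pool but pool 3 of 15 months ended the call (adjusted p from 0.0871 to 0.401), and so did DESeq2 (0.215). Haemoglobin genes moved with age in this class, with a summed red blood cell list of 40181 to 121357 CPM over the 3-month pools and 35.3 to 3739 over the 15-month pools; without cells over 1% haemoglobin UMIs the ratio of H2-Oa was -1.03 (adjusted p = 0.0353). On the pathway list Cd83 (-0.77 ± 0.18, adjusted p = 0.0233) and the protease gene Ctsd (-1.42 ± 0.36, adjusted p = 0.0448) were lower, 2 of 27 tested.

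In B cell-like cells, again with few cells (4, 5 and 11 at 3 months, 74, 104 and 66 at 15 months), 10 of 10 members had positive ratios and none was called, against 11 of 3032 genes (0.363%). H2-Ab1 was at 1172, 2385 and 3422 CPM, then 4396, 4172 and 5163, a log2 ratio of 0.96 ± 0.30 (adjusted p = 0.178). The groups did not overlap for 8 of the 10 members, but the median ratio of all genes in this fit was 0.37 too, and no overlap was found for 27.2% of them. Without pool 3 of 3 months, which left pools of 4 and 5 cells at that age, 1 member was called. The share of all genes called in that fit is not given here, so this count does not set the members apart from other genes. In mature dendritic cell-like and T cell-like cells no member was called, with 2 of 2012 and 2 of 2240 genes called (0.0994% and 0.0893%).

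In classical monocyte-like cells the chain genes and Cd74 were higher at 15 months, and 17 of 2537 genes were called in all (0.67%; 0.552% higher), 4 of them members out of 6 tested. Classical monocytes are blood-derived cells named here from Ly6c2, Ccr2 and Plac8. H2-Ab1 was at 163, 246 and 50.2 CPM at 3 months and 433, 1341 and 1108 at 15 months, and H2-Eb1 at 42.8, 49.1 and 0 against 163, 684 and 583. All 15-month pools lay above all 3-month pools for both genes, and no overlap was found for 19.4% of genes. The log2 ratios were 2.51 ± 0.42 for H2-Ab1, 2.85 ± 0.54 for H2-Aa, 3.68 ± 0.64 for H2-Eb1 and 1.70 ± 0.34 for Cd74 (adjusted p = 0.0124, 0.0172, 0.0124 and 0.0224). DESeq2 did not call H2-Aa (2.86, adjusted p = 0.298) and called the other 3. H2-DMa (0.91 ± 0.29) and H2-DMb1 (1.12 ± 0.35) did not pass, and H2-Oa had no UMI in this class.

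This rested on 38 cells at 3 months (19, 13 and 6 to a pool) and 159 at 15 months. Leaving out pool 1 or pool 2 of 3 months ended all 4 calls, with H2-Ab1 at 2.495 (adjusted p = 0.0918) and 2.90 (0.0542), and leaving out pool 3 of either age left 2 calls. Cells with at least 10 UMIs of the 4 genes numbered 5 of 38 and 72 of 159. After thinning to 1000 UMIs an H2-Ab1 UMI was found in 7.89% of 38 and 29.6% of 159 cells (Wilson 95% intervals 2.72% to 20.8% and 23.0% to 37.1%). These intervals merge the pools of an age and cover counting error only, not the spread between pools. By pool, 5.26%, 0% and 0% of cells held at least 5 chain UMIs at 3 months and 8.11%, 20.4% and 13.8% at 15 months. In neutrophil-like cells an H2-Ab1 UMI was found in 5.56% and 8.50%. Median depths were 6526 and 7537 UMIs in the classical monocyte-like cells and 1804 and 2154 in neutrophils. Of the marker lists of other cells, the summed macrophage list ran from 1686 to 2199 CPM over the 3-month pools and from 1621 to 1937 over the 15-month pools, with 0 of 5 tested genes called, and the cDC2 list from 30.1 to 154 and from 80.6 to 188, with 4 and 2 of its 8 genes at 0. The B cell list ran from 0 to 90.1 and from 149 to 184 CPM, and the red blood cell list from 529 to 542 and from 23.0 to 39.6. Without cells carrying any of the 8 macrophage and dendritic markers, the summed level of the 4 genes was 276 CPM in 16 cells at 3 months and 6264 in 33 cells at 15 months. The border with cluster 3, which also holds Ccr2 and has H2-Ab1 at 7222 CPM, was drawn by the clustering, and its part in the difference was not tested.

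In NK cell-like cells the call ran the other way, with most of the UMIs in a few barcodes. Of 3225 genes 20 were called (0.62%; 0.434% lower), and 4 of the 6 members tested were lower at 15 months. H2-Ab1 was at 222, 354 and 1096 CPM at 3 months and 94.7, 79.8 and 111 at 15 months, with no overlap, as for 20.4% of genes (log2 ratio -2.64 ± 0.46, adjusted p = 0.00758), and Cd74 gave -3.60 ± 0.41 (adjusted p = 0.000135). The 5 highest of 209 cells held 1817 of the 2160 UMIs of H2-Aa, H2-Ab1, H2-Eb1 and Cd74 at 3 months (84.1%), and 5 of 202 held 14.7% of 278 at 15 months. Cells with at least 1 such UMI were fewer at 3 months, 44.0% against 65.3%, at median depths of 3072 and 4089 UMIs. Without the cells that carried any of the 8 macrophage and dendritic markers the level was 175 CPM at 3 months and 316 at 15 months, the opposite order. No member was called there, but only 2, H2-Ab1 and Cd74, had enough counts to be tested. The cystatin gene Cst3 (-1.21 ± 0.26) and Ctss (-1.59 ± 0.34) were called lower as well (adjusted p = 0.0453 each), 2 of 20 listed pathway genes tested. The summed macrophage list ran from 81.7 to 1314 CPM at 3 months and from 112 to 472 at 15 months. Where the class II UMIs of these barcodes came from was not tested. The red blood cell list ran from 639 to 13232 CPM at 3 months and from 40.4 to 55.9 at 15 months.

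The difference between classes in the age effect was tested as an interaction with the pool as a block, for 17 pairs of classes. Against macrophage-like cells the NK cell-like effect was lower for H2-Aa, H2-Ab1, H2-Eb1 and Cd74, by 3.12, 2.57, 2.89 and 3.48 on the log2 scale, where 22 of 8719 genes were called (0.252%). At 3 months 5 of 209 NK cell-like barcodes held 84.1% of the UMIs of these 4 genes, and the difference was not tested without them. The classical monocyte-like effect was higher than the macrophage-like one for the same 4 genes, by 2.39, 2.17, 3.29 and 1.61 (0.438% of 8455 genes called). It was also higher than that of non-classical monocyte-like cells, by 2.6, 2.35, 3.44 and 1.98 (0.118% of 4226 genes). The 3-month classical monocyte-like pools held 19, 13 and 6 cells, and these differences were not tested with a pool left out. The cDC1-like effect was lower than the macrophage-like one for H2-Eb1, by 0.93 (0.357% of 8956 genes called). In non-classical monocyte-like cells H2-Ab1 was at 856, 696 and 616, then 271, 2118 and 690 CPM, so that pool 2 of 15 months alone was high, and no member was called among 6 tested, with 13 of 3900 genes called (0.333%).

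In the remaining classes no member was called. Fibroblast or stroma-like cells had positive ratios for 7 of 7 members tested, with a median of 0.86 and Ciita at 1.45 ± 0.38 (adjusted p = 0.303), where 1 of 6105 genes was called (0.0164%). Within that class the chain UMIs were uneven, and the cells without any of the 8 macrophage and dendritic markers gave 1588 CPM of the 4 genes at 3 months and 772 at 15 months, against 7296 and 12483 over all its cells. For endothelial-like cells the values were 2308 and 838 CPM, against 4685 and 3935 over all cells. Of the 79 at 3 months, 5 held 60.5% of these UMIs. Cluster 3, cycling, endothelial and neutrophil-like cells had 8 of 4607, 1 of 4593, 4 of 5625 and 5 of 1903 genes called (0.174%, 0.0218%, 0.0711% and 0.263%), with members on both sides of 0. Across the 13 fits in classes with at least 10 cells in every pool, with all kept cells and the macrophage clusters counted among them, Ciita had a positive ratio in 8 of the 9 in which it was tested and Cd74 in 3 of 13; the fits share pools and cells, so this is a count and not a test.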

How the data were processed

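Single-cell RNA-seq with hashtag antibodies was made from 3 pools at each age, with 1 library per age. What was deposited are UMI counts for each gene in each barcode, not normalized, with hashtag counts in the same matrix per the file headers. The submitters' processing notes name Cell Ranger 7.0.0, FastQC 0.11.4 and the mm10 build, while the matrix header names Cell Ranger 4.0.0; whether counting used strand is not given in the sources used here. Kept barcodes had at least 500 genes, at least 1000 gene UMIs, at most 10% mitochondrial UMIs and a top hashtag with at least 10 counts and at least 3 times the second; 51 and 247 barcodes that passed the cell filter had no such hashtag. Kept pools held 4627201 to 25840364 UMIs, with medians of 5467 to 8595 per cell, and pools of an age differed beyond sampling noise (chi-square over degrees of freedom 8.66 to 26.8).

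Cells were clustered with scanpy 1.11.5 (2000 variable genes without the members and H2-Eb2, 30 components, 15 neighbours, Leiden resolution 0.6, no integration of libraries). Clusters were named from marker lists, by limits set after the clusters were seen. Scrublet's own calls marked 1 barcode, so no doublets were removed. UMIs were summed by class and pool and tested with edgeR 4.0.16 (filterByExpr, TMM, quasi-likelihood, Benjamini-Hochberg over all genes of a fit, threshold 0.05) where each pool held at least 10 cells, or at least 4 as an added choice. On simulated counts the test found 64.6% of genes changed by a log2 of 1 and 93.9% of those changed by 2 in macrophage-like cells (8748 genes), and 65.7% and 100% in NK cell-like cells (3069 genes). For each class 100 genes of each size were changed, drawn only from genes with higher counts. Genes with low counts and other classes were not simulated, so these shares may not hold for them. All 10 members are named; of the pathway list, those past the threshold in a class and the 3 with the smallest p could be named, and the latter are given for macrophage-like cells. A gene among those most like a member is not reported here. The members and lists were chosen with earlier results of these data known. Intervals cover counting error only. Alternatives were other size factors, DESeq2 1.42.0, filters on counts and cells, hashtag ratios, clusterings, thinning, cells left out by their markers, and each pool left out.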

Additional observations from a re-analysis of the deposited data

Results flagged for a closer look

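Age effects that differed between classes by a test of the difference itself are listed here as differences in log2 ratio, adjusted over all genes of each fit by edgeR's quasi-likelihood test. NK cell-like minus macrophage-like cells gave -3.12 for H2-Aa (adjusted p = 2.0e-07), -2.57 for H2-Ab1 (1.59e-05), -2.89 for H2-Eb1 (2.49e-07) and -3.48 for Cd74 (2.32e-08); 5 barcodes held 84.1% of these UMIs in the 3-month NK cell-like cells, and the difference was not tested without them. cDC1-like minus macrophage-like cells gave -2.47 for H2-Oa and -0.93 for H2-Eb1 (0.0496 each). H2-Oa was at most 5.43 CPM in any macrophage-like pool and did not pass the filter on low counts there: it entered this fit only through cDC1-like cells, so that its value does not show a difference between the classes.

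Classical monocyte-like minus macrophage-like cells gave 2.39 for H2-Aa (2.24e-11), 2.17 for H2-Ab1 (1.53e-09), 3.29 for H2-Eb1 (6.01e-12) and 1.61 for Cd74 (1.92e-07). Classical minus non-classical monocyte-like cells gave 2.6 for H2-Aa, 2.35 for H2-Ab1 (8.57e-07), 3.44 for H2-Eb1 and 1.98 for Cd74, with an adjusted p of 1.49e-07 for H2-Aa, H2-Eb1 and Cd74. The 3-month classical monocyte-like pools held 19, 13 and 6 cells.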

How the results depend on the processing

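Over the alternatives run, 676 log2 ratios kept their direction and side of the threshold, 28 reversed, 29 lost and 10 gained a call; 269 counts of called members stayed within 1.5 times and 23 did not. The 4 NK cell-like calls became 0 with a hashtag ratio of 2, the stricter cell filter, the highest doublet scores left out, or cells with macrophage or dendritic markers left out (the last 2 settings chosen after seeing the data), and 1 without pool 1 or pool 2 of 15 months (range 1 to 5). The settings that gave 0 tested 6, 4, 4 and 2 members, in the order named, and a member that was not tested could not be called. The log2 ratios of the 4 genes reversed under the stricter filter (H2-Aa 0.34, H2-Ab1 0.61, H2-Eb1 0.43, Cd74 0.39) and without the highest doublet scores (0.26, 0.66, 0.46 and 0.20). Without marker-bearing cells the 2 that were tested reversed (H2-Ab1 0.86, Cd74 0.75). In macrophage-like cells 1 member, Ciita, was called by DESeq2, with no filter, and without pool 3 of 3 months (range 0 to 1). Without pool 2 of 3 months the ratios there turned negative for H2-Ab1 (range over pools left out -0.033 to 0.50), H2-Eb1 (-0.015 to 0.54), Cd74 (-0.20 to 0.28) and H2-DMb1 (-0.025), and without pool 3 of 15 months for Cd74 (-0.10) and H2-DMb1 (-0.033; range -0.033 to 0.22). With no filter, 6 of 10 members were called in stroma-like and 1 of 10 in non-classical monocyte-like cells. Without the highest doublet scores 1 of 6 was called in stroma-like and 2 of 10 in cDC1-like cells. The shares of all genes called under these settings are not given here, so these counts do not set the members apart from other genes.

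Leaving out a pool gave 0 to 1 calls in cDC1-like, 0 to 1 in B cell-like and 0 to 5 in classical monocyte-like cells, where DESeq2 gave 3. The shares of all genes called in these fits are not given here. The B cell-like ratio of H2-DMb1 ranged from -0.13 to 1.58 over pools left out, and was -0.0038 without pool 3 of 15 months, -0.0044 by DESeq2 and -0.27 without the highest doublet scores. In cDC2-like cells H2-Ob, at 0.01, turned to -0.0015 with DESeq2 size factors, -0.069, -0.084 and -0.070 without pool 1 or 2 of 3 months or pool 1 of 15 months (range -0.084 to 0.18), -0.0014 at resolution 1.0, -0.0064 with members among the clustering genes and -0.083 at a hashtag ratio of 5, and H2-DMa to 0.034 without pool 3 of 3 months (range -0.24 to 0.034). The cDC2-like difference in cells with an H2-Ab1 UMI turned from 0.45 to -0.16 percentage points with no thinning and at 2000 UMIs. The cause of these changes was not tested. With the pool number as a replicate block 4 members were called in NK cell-like and 0 in macrophage-like cells, and no count of called members changed. Over all kept cells same-numbered pools correlated at -0.0258, 0.0982 and 0.112, and pools with different numbers at -0.179 to 0.109. So few pairs cannot show whether same-numbered pools share more than a number. Removing scrublet's own calls was not run, since they marked 1 barcode. Classes with 4 to 9 cells in a pool were not refitted under other clusterings or hashtag ratios.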
